A study of Homo sapiens with 6 samples.

Results

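The genes described here carry glutamine into the cell, break it down to glutamate and on to tricarboxylic acid cycle intermediates, or rebuild it. They were chosen by symbol: the transporters SLC1A5, SLC38A1 and SLC38A2, the glutaminase GLS2, the glutamine synthetase GLUL, the glutamate dehydrogenase GLUD1 and the aspartate aminotransferases GOT1 and GOT2. Each symbol matched 1 Ensembl gene, so the 8 genes are 8 of the 63677 gene rows of the count table, and all 8 are among the 15949 genes that passed a filter on low counts and were tested. RNA was sequenced from RPMI-8402, a T-cell acute lymphoblastic leukaemia (T-ALL) line, with stably expressed Cas9 in every sample. Cells of 3 samples received doxycycline (DOX), which switches on guide RNAs; the design text gives MYC and MYCN as their targets, but the treatment protocol gives MYC alone and the genotype label is MYCN_knockout. Cells of the other 3 samples received the solvent DMSO and have the genotype label control. All were harvested at 72 hours. Whether replicate samples were separate cultures is not stated, so the p-values rest on a spread that may be only technical. Cells given doxycycline without guides were not analysed here, so the drug and the guides cannot be told apart.

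Proliferating lymphoid cells import glutamine through sodium-coupled carriers of the cell membrane. In mitochondria a glutaminase removes its amide nitrogen, and the glutamate formed is converted to 2-oxoglutarate either by glutamate dehydrogenase, which releases ammonia, or by aminotransferases, which hand the nitrogen to another carbon skeleton. MYC proteins are known in other cell systems to raise glutamine uptake and breakdown, which gives the question asked of these genes: whether they are lower when guides against MYC and MYCN are induced.

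Libraries carry the group and the number of their count column: DOX 12, 24 and 36, and DMSO 11, 23 and 35. Totals ran from 28602145 to 28911373 counts in DOX and from 28952786 to 29204148 counts in DMSO. DMSO 11 stood apart from its group: over 9311 genes averaging 10 CPM or more (CPM, counts relative to library size after a composition factor), its root mean square log2 distance was 0.18 to 0.21 to the DOX libraries but 0.41 to 0.43 to the other DMSO libraries. Whether that library carries the right label or was handled differently was not tested and cannot be settled from these files. The fold changes of the 8 genes are therefore given with and without it. Because DMSO 11 was singled out in these same data for lying near DOX, leaving it out favours larger differences and a smaller spread. The p-values without it rest on DMSO 23 and DMSO 35 as the only controls. They are given as a description, not as support for a difference. MYCN was lower in every DOX library, at 46.2, 50.05 and 53.7 CPM in DOX against 76.8, 109.5 and 86.9 CPM in DMSO. For MYC, which averaged 200 ± 6.57 CPM in DOX and 245 ± 39.7 CPM in DMSO (SD, n = 3 each), the groups overlapped. It stood at 206, 200 and 193 CPM in DOX 12, 24 and 36, against 279, 201 and 256 CPM in DMSO 11, 23 and 35. For this gene DMSO 23 lay within the DOX range, and DMSO 11 was the highest library. The log2 fold change of MYC was -0.30, -0.20 without DMSO 11 and -0.42 without DMSO 23. Of 7 T cell markers all were detected, with a summed level of 1101 to 1127 CPM in DOX and 1130 to 1223 CPM in DMSO. Among them PTCRA, the alpha chain of the pre-T cell receptor, was lower in each DOX library, at 3.95, 4.20 and 4.17 CPM in DOX against 5.47, 7.18 and 7.74 CPM in DMSO (log2 fold change -0.73 ± 0.16, edgeR adjusted p = 0.0892, DESeq2 adjusted p = 0.00876). CD5 averaged 137 ± 1.96 CPM in DOX and 149 ± 6.31 CPM in DMSO without overlap. CD3D overlapped, at 290 ± 9.50 CPM in DOX and 336 ± 59.5 CPM in DMSO, and with all 6 libraries neither was called. CD2 went the other way, at 14.6 ± 0.991 CPM in DOX and 10.6 ± 7.79 CPM in DMSO, with overlap. Its log2 fold change was 0.46, and 1.24 without DMSO 11. CD3E, CD3G and CD7 stayed near 0, with log2 fold changes of 0.01, 0.0006 and 0.02. Of 9 markers of other cell types KRT8 and COL1A1 passed the filter, with a summed level of 9.32 to 10.2 CPM in DOX and 2.84 to 7.11 CPM in DMSO. The other 7 had at most 9 counts in any library, and the B cell marker MS4A1 and the endothelial marker PECAM1 had 0 in every library. COL1A1, a collagen, held most of that sum, at 9.41 ± 0.269 CPM in DOX and 4.11 ± 2.61 CPM in DMSO, with 7.11 CPM in DMSO 11. Its log2 fold change was 1.2 (DESeq2 adjusted p = 0.0148; edgeR adjusted p = 0.107), and 1.85 without DMSO 11. The part of these markers in the results was not tested.

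Across the 8 genes, 6 had a log2 fold change below 0 (lower in DOX) and 2 above 0. The uptake carriers, glutamate dehydrogenase and both aspartate aminotransferases were on the lower side, and the glutaminase GLS2 and the glutamine synthetase GLUL on the higher side. The median log2 fold change of the 8 genes was -0.24, beside -0.0031 over all genes tested. With Benjamini-Hochberg adjustment over all genes, the quasi-likelihood test of edgeR called 0 of the 8 at an adjusted p of 0.05, in a comparison where it called 5 genes, 0.0313% of those tested. Limma voom also called 0 of the 8. The unadjusted edgeR p was under 0.05 for 3 of the 8, GLUD1, GLS2 and SLC38A2, against 26% of all genes. DESeq2, which called 9.81% of the genes for which it gave an adjusted p, called 1 of the 8, GLUD1, as lower; the share of all genes it called lower was 6.44%. Without DMSO 11, edgeR called 7 of the 8, 5 lower and 2 higher, in a fit that called 49.4% of its genes (25.7% lower, 23.7% higher). In 5 genes the 3 DOX libraries did not overlap the 3 DMSO libraries, 3 lower and 2 higher in DOX; over all genes the share without overlap was 30.2%, with 15.6% lower and 14.6% higher.

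**Figure D1:**
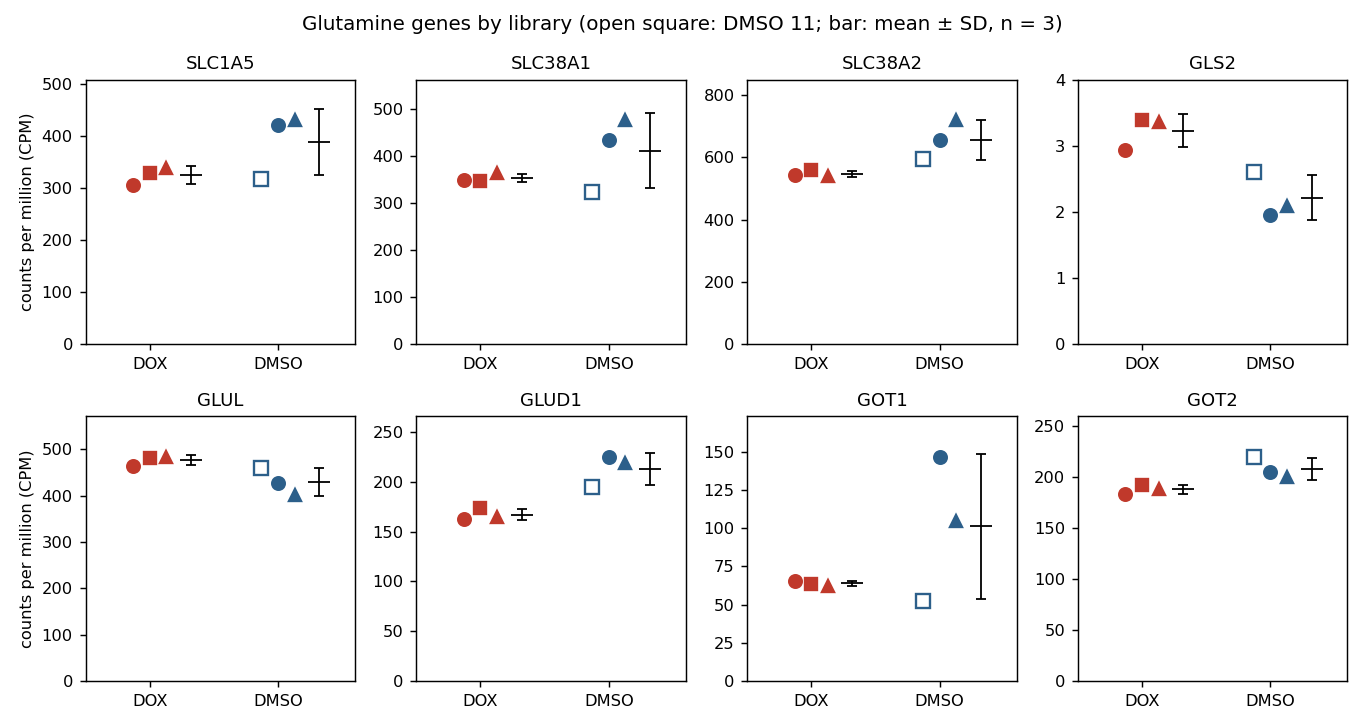
Level of each of the 8 genes in CPM (vertical axes start at 0) in each DOX library (red, left) and DMSO library (blue, right), with the mean ± SD of 3 libraries as a black bar and DMSO 11 as an open square. The DOX libraries lie close together in each panel, and for SLC1A5, SLC38A1 and GOT1 DMSO 11 lies at or below part of the DOX range while the other DMSO libraries lie above it.

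SLC1A5 (ENSG00000105281, chromosome 19), also called ASCT2, exchanges neutral amino acids with sodium and is a main route of glutamine entry into proliferating cells. It stood at 305, 329 and 338 CPM in DOX 12, 24 and 36, against 316, 420 and 430 CPM in DMSO 11, 23 and 35. DMSO 11 lay inside the DOX range and the other DMSO libraries above it, so the groups overlapped. Means were 324 ± 17.2 CPM in DOX and 389 ± 63.1 CPM in DMSO, and the log2 fold change was -0.26 ± 0.13 (SE; edgeR adjusted p = 0.230; two-sided exact permutation p = 0.3). Without DMSO 11 the log2 fold change was -0.39 ± 0.07 (edgeR adjusted p = 8.9e-05).

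SLC38A1 (ENSG00000111371, chromosome 12), or SNAT1, cotransports glutamine with sodium and accumulates it in the cell. Its level was 349, 347 and 363 CPM in the DOX libraries, against 324, 435 and 477 CPM in DMSO 11, 23 and 35. DMSO 11 was the lowest of all 6 libraries, and the DOX libraries lay between it and the other DMSO libraries. The log2 fold change was -0.22 ± 0.14 (edgeR adjusted p = 0.327; exact permutation p = 0.4), and -0.37 ± 0.07 without DMSO 11 (edgeR adjusted p = 0.000168).

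SLC38A2 (ENSG00000134294, chromosome 12), or SNAT2, is the relative of SLC38A1 that cells induce when amino acids run short. It stood at 544, 559 and 539 CPM in DOX, against 593, 655 and 719 CPM in DMSO. The groups did not overlap: even DMSO 11, the lowest DMSO library, was above the highest DOX library. The log2 fold change was -0.26 ± 0.10 (edgeR adjusted p = 0.156; exact permutation p = 0.1, the smallest that 3 libraries against 3 allow). DESeq2's 95% interval for it ran from -0.47 to -0.05, with an adjusted p of 0.0901. Without DMSO 11 the log2 fold change was -0.33 ± 0.07 (edgeR adjusted p = 0.000689).

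The summed level of the 3 carriers was 1198, 1235 and 1241 CPM in DOX, against 1234, 1510 and 1627 CPM in DMSO 11, 23 and 35. The sum in DMSO 11 lay within the DOX range, while DMSO 23 and DMSO 35 lay above it. The means were 1225 ± 22.9 CPM in DOX and 1457 ± 202 CPM in DMSO (two-sided exact permutation p = 0.3).

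GLS2 (ENSG00000135423, chromosome 12), the liver-type glutaminase and a known target of p53, was the least abundant of the 8. Counts were 85, 97 and 97 in DOX 12, 24 and 36, and 73, 58 and 62 in DMSO 11, 23 and 35. In CPM these were 2.95, 3.40 and 3.37 in DOX against 2.61, 1.96 and 2.10 in DMSO, so every DOX library was above every DMSO library and DMSO 11 was the nearest to DOX. The log2 fold change was 0.54 ± 0.18, a 1.46-fold higher level (edgeR adjusted p = 0.121; exact permutation p = 0.1). It was 0.67 ± 0.17 without DMSO 11 (edgeR adjusted p = 0.00329). SPRYD4, a gene on the opposite strand that overlaps GLS2 in GENCODE 29, held 1232 counts over the 6 libraries against 472 for GLS2; since the strand setting of the counting is not given in the sources used here, the reads of the 2 genes cannot be told apart with certainty. SPRYD4 itself averaged 7.53 ± 0.0286 CPM in DOX and 6.71 ± 0.759 CPM in DMSO, with a log2 fold change of 0.17 ± 0.13.

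GLUL (ENSG00000135821, chromosome 1), which joins ammonia to glutamate and so runs against glutaminase, stood at 464, 482 and 484 CPM in DOX, against 459, 428 and 401 CPM in DMSO. The groups did not overlap, but the gap between DOX 12 and DMSO 11 was small. The difference was 0.15 ± 0.09 on the log2 scale (edgeR adjusted p = 0.314; exact permutation p = 0.1), and 0.20 ± 0.07 without DMSO 11 (edgeR adjusted p = 0.0211). DESeq2's 95% interval was -0.04 to 0.34. The 4 GLUL pseudogenes in the table held at most 5 counts each over all libraries.

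GLUD1 (ENSG00000148672, chromosome 10), the mitochondrial enzyme that deaminates glutamate to 2-oxoglutarate, gave the smallest p of the 8. Its level was 163, 174 and 165 CPM in DOX, against 195, 225 and 219 CPM in DMSO. Each DOX library was below each DMSO library, DMSO 11 again being the closest. The means were 167 ± 5.99 CPM in DOX and 213 ± 16.0 CPM in DMSO. The log2 fold change was -0.35 ± 0.09, or 0.785 of the DMSO level (edgeR adjusted p = 0.0946; exact permutation p = 0.1). DESeq2 called it at -0.35 (adjusted p = 0.0146), and without DMSO 11 edgeR called it at -0.41 ± 0.06 (adjusted p = 2.3e-05). GLUD1 has near-identical copies: the pseudogene GLUD1P3 held 499 counts in all, 1.51% of those of GLUD1, and GLUD2, a copy on another chromosome, averaged 1.31 CPM in DOX and 1.61 CPM in DMSO, so a small part of its reads may be assigned elsewhere. On the opposite strand GLUD1 overlaps SHLD2, called FAM35A in the files, which held 12463 counts, 37.8% of those of GLUD1. SHLD2 averaged 67.9 ± 1.06 CPM in DOX and 75.9 ± 0.816 CPM in DMSO (log2 fold change -0.16 ± 0.07). As for GLS2, the strand setting of the counting is not given, so the reads of GLUD1 and SHLD2 cannot be told apart with certainty.

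GOT1 (ENSG00000120053, chromosome 10), the cytosolic aspartate aminotransferase of the malate-aspartate shuttle, had the log2 fold change furthest below 0 of the 8 and the widest spread. It stood at 65.7, 63.3 and 62.5 CPM in DOX 12, 24 and 36, against 52.3, 147 and 105 CPM in DMSO 11, 23 and 35. DMSO 11 was below every DOX library and the other DMSO libraries far above them, so the groups overlapped. The coefficient of variation was 2.64% in DOX and 46.7% in DMSO. Its log2 fold change was -0.67 ± 0.30 (edgeR adjusted p = 0.202; exact permutation p = 0.4). It was -0.98 ± 0.11 without DMSO 11 (edgeR adjusted p = 4.5e-05) and -0.30 without DMSO 23. On the log2 CPM scale, the DOX mean was 0.29 above DMSO 11 and 0.96 below the mean of DMSO 23 and DMSO 35.

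GOT2 (ENSG00000125166, chromosome 16), the mitochondrial aspartate aminotransferase, stood at 183, 192 and 188 CPM in DOX, against 220, 204 and 200 CPM in DMSO. The groups did not overlap. In contrast to the other 7 genes, DMSO 11 was the DMSO library furthest from the DOX mean. On the log2 scale the fold change was -0.15 ± 0.08 (edgeR adjusted p = 0.278; exact permutation p = 0.1), and it was the only one of the 8 not called without DMSO 11, at -0.11 ± 0.06 (edgeR adjusted p = 0.169).

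**Figure D2:**
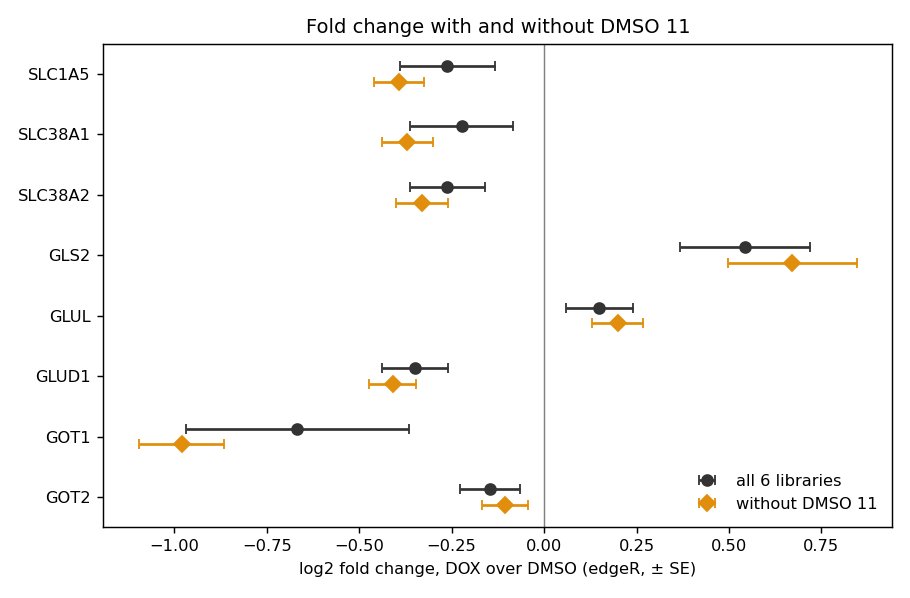
Log2 fold change of DOX over DMSO from edgeR with its standard error for each of the 8 genes, over all 6 libraries (dark circles) and without DMSO 11 (orange diamonds). Each gene keeps its side of 0, and for SLC1A5, SLC38A1, SLC38A2, GLS2, GLUL, GLUD1 and GOT1 the value without DMSO 11 lies further from 0.

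In the authors' deposited table, which gives no per-library values, 1 of the 8 genes had an adjusted p under 0.05. It was GLUD1, at -0.35 on the log2 scale (adjusted p = 0.0149), in a table where 9.57% of the genes with an adjusted p passed. In the authors' deposited table SLC38A2 had an adjusted p of 0.0853, GOT1 0.0961 and GLS2 0.127.

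Gene starts were searched for 3 short motifs in the 250 bases before each start in RefSeq (GRCh38.p14), on both strands: CACGTG, the E-box bound by MYC and MAX; TGATGNAA, the element bound by ATF4, the transcription factor of the amino acid response; and GTAAACA, bound by FOXO factors. All 8 genes matched, with 12 starts. CACGTG was in 1 of the 12 windows, against 6.34% of the 35116 windows of all genes. TGATGNAA was in 2 of the 12, against 3.14%, and GTAAACA in 1, against 2.98%. The matches fell at GOT1 and at starts 2 and 3 of the 3 starts listed for SLC1A5. The stretches of 30 bases around the E-box and the ATF4 element matches are shown because these are the genes' only matches to the motifs of the targeted and of the amino acid response factors. Capitals mark the match, on the gene's strand, 5′ to 3′.
GOT1, ATF4 element on the reverse strand, chr10:99430804-99430833, minus strand: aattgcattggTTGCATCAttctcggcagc
SLC1A5, E-box before start 2, chr19:46787326-46787355, minus strand: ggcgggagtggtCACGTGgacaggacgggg
SLC1A5, ATF4 element before start 3, chr19:46784893-46784922, minus strand: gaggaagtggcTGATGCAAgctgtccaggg
The GOT1 match lies 198 to 191 bases before the RefSeq start, and the SLC1A5 matches lie 50 to 45 bases before start 2 and 97 to 90 bases before start 3. In GENCODE 29 each of these 3 matches overlaps an annotated exon and untranslated region of the same gene. Which transcript these belong to was not read, so a match may lie within a transcript and not before its start. The other 6 genes held none of the 3 motifs in these windows. No binding was measured in these samples, and a match describes letters, not a bound site.

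Levels between genes were compared per kilobase of merged exons in GENCODE 29. In DOX the order was SLC1A5 at 97.3 ± 5.15 CPM per kb, SLC38A2 at 82.9 ± 1.56, GLUL at 52.8 ± 1.22, GOT2 at 49.9 ± 1.22, GLUD1 at 47.5 ± 1.70, SLC38A1 at 35.3 ± 0.885, GOT1 at 18.9 ± 0.501 and GLS2 at 0.782 ± 0.0615 CPM per kb. In DMSO the order was SLC1A5 at 117 ± 18.9 CPM per kb, SLC38A2 at 99.3 ± 9.56, GLUD1 at 60.5 ± 4.55, GOT2 at 55.2 ± 2.80, GLUL at 47.6 ± 3.24, SLC38A1 at 41.2 ± 7.88, GOT1 at 30.1 ± 14.1 and GLS2 at 0.537 ± 0.0821 CPM per kb. The ranges of 1 SD touched between GOT2 and GLUD1 in both groups and between SLC1A5 and SLC38A2, GLUL and SLC38A1, and SLC38A1 and GOT1 in DMSO only. Part of this order depends on the length used. Per kb of the longest coding transcript, GLUL stood at 101 ± 2.33 CPM per kb, GOT2 at 76.3 ± 1.86 and GLUD1 at 55.0 ± 1.97 in DOX, the same order as per kb of merged exons, but with GOT2 and GLUD1 apart by more than their SDs. In DMSO GLUL stood at 91.0 ± 6.19 CPM per kb, GOT2 at 84.4 ± 4.28 and GLUD1 at 70.1 ± 5.27 by that length, so GLUD1 came below both, and the ranges of GLUL and GOT2 touched. SLC1A5 and SLC38A2 were level by that length, at 112.5 ± 5.96 and 111.9 ± 2.11 CPM per kb in DOX and at 134.9 ± 21.9 and 134.2 ± 12.9 CPM per kb in DMSO.

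Partner genes were also compared within each library, as the log2 ratio of their CPM, for 3 pairs chosen with the members' values known. The ratio of GLUD1, which breaks down glutamate, to GLUL, which consumes it to make glutamine, was -1.51, -1.47 and -1.55 in DOX against -1.24, -0.93 and -0.87 in DMSO 11, 23 and 35. Every DOX library was below every DMSO library, by a mean of 0.50 (two-sided exact permutation p = 0.1, adjusted over the 3 pairs p = 0.3), and by 0.61 without DMSO 11. Since GLUD1 was lower and GLUL higher in every DOX library, their ratio had to separate the groups. It adds no test beyond the values of the 2 genes. The ratio of cytosolic GOT1 to mitochondrial GOT2 was -1.48, -1.60 and -1.59 in DOX against -2.07, -0.48 and -0.93 in DMSO. DMSO 11 had the lowest ratio and DMSO 23 the highest, so a difference between GOT1 and GOT2 in their response was not resolved (exact permutation p = 0.4, adjusted p = 0.6). The ratio of SLC38A2 to SLC38A1 averaged 0.63 ± 0.06 in DOX and 0.68 ± 0.16 in DMSO (exact permutation p = 0.8, adjusted p = 0.8). With 3 libraries against 3 no p of this test can be below 0.1.

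**Figure D3:**
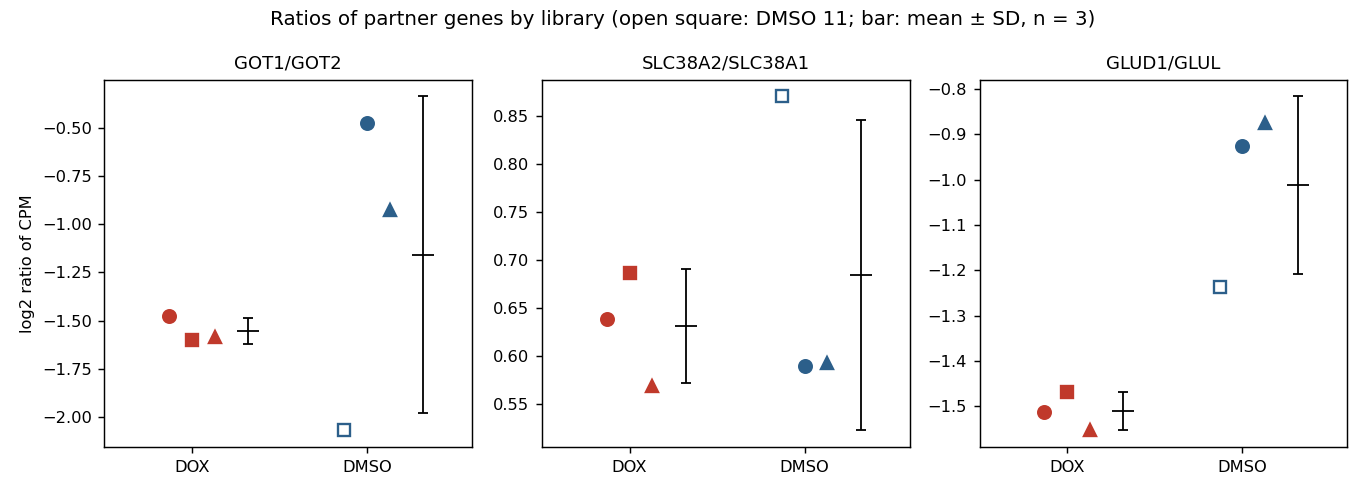
Log2 ratio of the CPM of 2 partner genes within each library, for DOX (red, left) and DMSO (blue, right), with the mean ± SD of 3 libraries as a black bar and DMSO 11 as an open square; the vertical axes differ between panels and do not start at 0. The groups separate for GLUD1/GLUL, where the DOX libraries lie between -1.55 and -1.47, as the levels of these 2 genes already fixed. They overlap for the other 2 pairs.

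Lists of related genes were counted beside the same shares over all genes: edgeR called 0.0313% of all genes and DESeq2 9.81%, and without DMSO 11 edgeR called 23.7% higher and 25.7% lower. In a list of 18 other genes, chosen as carriers of glutamine and neutral amino acids, 14 were tested, with a median log2 fold change of 0.06. It also holds SLC7A11, which exchanges cystine for glutamate, and SLC3A2, a carrier subunit, and its counts include them. EdgeR called 0 of the 14 and DESeq2 1 higher and 1 lower. Without DMSO 11 edgeR called 2 higher and 5 lower, with SLC7A11 and SLC3A2 among the lower. SLC38A7, a lysosomal glutamine exporter, was the one DESeq2 called higher, at 33.1, 30.3 and 30.5 CPM in DOX against 25.3, 17.6 and 18.3 CPM in DMSO (log2 fold change 0.62 ± 0.14, DESeq2 adjusted p = 0.00797). SLC6A15, a sodium-coupled carrier of branched-chain amino acids, was the one called lower, at 16.0, 17.5 and 14.7 CPM in DOX against 22.9, 33.1 and 35.5 CPM in DMSO (-0.92 ± 0.17, DESeq2 adjusted p = 0.000132). The exchanger that trades intracellular glutamine for leucine is made of SLC7A5 and SLC3A2. SLC7A5, the most abundant of the list, overlapped between groups, at 968 ± 45.8 CPM in DOX and 889 ± 80.2 CPM in DMSO. SLC3A2 stood at 376, 400 and 368 CPM in DOX against 343, 613 and 578 CPM in DMSO 11, 23 and 35; DMSO 11 was the lowest of the 6 libraries, as it was for SLC38A1 and GOT1.

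A list of mitochondrial and membrane carriers covered those of glutamate and aspartate, and also SLC25A44 and SLC25A11, which carry other substrates. Of these carriers 6 of 9 were tested. DESeq2 called 1 of them higher and 0 lower, and edgeR 0 (2 higher, SLC25A44 among them, and 1 lower without DMSO 11). Their median log2 fold change was -0.0053. SLC25A22, which brings glutamate into mitochondria, was higher in each DOX library, at 36.7, 34.95 and 36.3 CPM in DOX against 31.3, 25.6 and 25.9 CPM in DMSO (log2 fold change 0.38 ± 0.10, DESeq2 adjusted p = 0.0345). The aspartate-glutamate carrier SLC25A13 averaged 26.4 ± 0.584 CPM in DOX and 30.5 ± 0.479 CPM in DMSO, without overlap (-0.21 ± 0.08, edgeR adjusted p = 0.165). SLC25A44, a carrier of branched-chain amino acids, averaged 71.7 CPM in DOX and 62.1 CPM in DMSO. SLC25A11, the 2-oxoglutarate carrier of the malate-aspartate shuttle, was at 90.0 CPM in DOX and 91.5 CPM in DMSO, and its log2 fold change of -0.02 turned to 0.01 with upper quartile scaling and to 0.03 without DMSO 11.

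A list of other enzymes around glutamate metabolism, 14 of 16 tested, had a median log2 fold change of -0.17. It also holds enzymes that do not act on glutamate itself, such as MDH2, and its counts include them. Without DMSO 11 edgeR called 4 higher and 7 lower, in the fit that called 49.4% of all genes. With all 6 libraries edgeR called 0 and DESeq2 1, as higher. That gene was ALDH4A1, which forms glutamate from proline in mitochondria, at 16.4, 16.2 and 17.0 CPM in DOX against 13.8, 5.49 and 5.51 CPM in DMSO 11, 23 and 35 (1.005 ± 0.33, DESeq2 adjusted p = 0.0258; 1.59 without DMSO 11). DMSO 11 stood close to DOX for this gene, and far from the other DMSO libraries. GPT2, the mitochondrial alanine aminotransferase, had 72.3, 72.9 and 74.2 CPM in DOX against 60.3, 141 and 145 CPM in DMSO, and PSAT1, the phosphoserine aminotransferase of serine synthesis, 490, 526 and 516 CPM in DOX against 441, 699 and 696 CPM in DMSO. Both showed the pattern of GOT1, with DMSO 11 below the DOX libraries. MDH2, the mitochondrial malate dehydrogenase that works with GOT2 in the malate-aspartate shuttle, had 202, 230 and 220 CPM in DOX against 315, 271 and 244 CPM in DMSO. Like GOT2 it was lower in each DOX library and highest in DMSO 11 (-0.35 ± 0.11, edgeR adjusted p = 0.120).

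Glutamine amidotransferases spend glutamine nitrogen on nucleotides, amino sugars and other products. Their list of 12 genes also holds CPS1, which takes free ammonia instead. Of the 12, 10 were tested, CPS1 among them, and edgeR and DESeq2 called 0. The unadjusted edgeR p was under 0.05 for 3, and the median log2 fold change was 0.04. Without DMSO 11 edgeR called 4 higher, which include CPS1, and 3 lower. Of the 10 tested, 3, PPAT, GMPS and QRSL1, were lower and 2, CAD and ASNS, higher in every DOX library than in any DMSO library. Over all genes 15.6% were lower and 14.6% higher in this way. PPAT, which commits glutamine to purines, averaged 113 ± 1.96 CPM in DOX and 139 ± 17.3 CPM in DMSO (-0.29 ± 0.10, edgeR adjusted p = 0.134). GMPS, the GMP synthetase, averaged 285 ± 1.47 CPM in DOX and 356 ± 54.2 CPM in DMSO, and QRSL1, of the mitochondrial amidotransferase for glutaminyl-tRNA, 29.5 ± 0.837 CPM in DOX and 37.7 ± 6.26 CPM in DMSO. Among 7 tested genes of proline and glutathione synthesis, DESeq2 called 1, PYCR1, the last enzyme of proline synthesis, as lower, at 24.01, 23.2 and 28.1 CPM in DOX against 27.4, 47.6 and 40.2 CPM in DMSO (-0.61 ± 0.19, DESeq2 adjusted p = 0.0324). With all 6 libraries ALDH18A1, GCLM and GSS were called by neither edgeR nor DESeq2. Without DMSO 11 edgeR called 1 gene of that list higher, ALDH18A1 (0.31, adjusted p = 0.00122), and 1 lower, PYCR1 (-0.81).

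Known regulators of these genes were read beside them. Of 6, all tested, edgeR called 0 and DESeq2 2, MYCN and FOXO3, as lower, and without DMSO 11 edgeR called 2 higher and 2 lower. ATF4 averaged 574 ± 9.54 CPM in DOX and 506 ± 62.0 CPM in DMSO, with DMSO 11 at 577 CPM and within the DOX range. FOXO3, whose family induces GLUL in other cells, averaged 60.7 ± 1.29 CPM in DOX and 85.0 ± 17.9 CPM in DMSO, and DESeq2 called it lower (-0.49 ± 0.14, DESeq2 adjusted p = 0.0366). ATF4 and FOXO proteins are controlled largely after transcription, so these RNA levels do not give their activity.

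**Figure D4:**
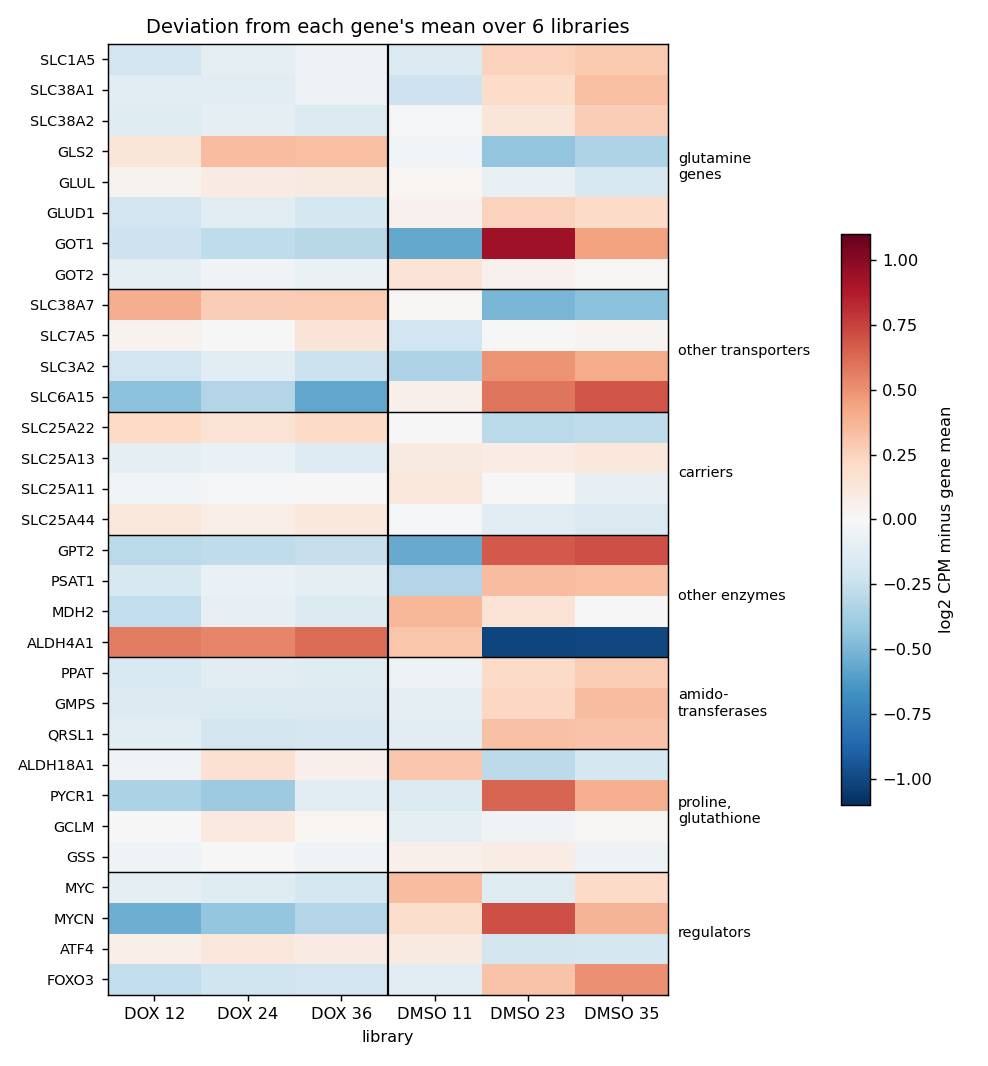
Log2 CPM of each gene minus its mean over the 6 libraries (red, above the mean; blue, below it) for the 8 glutamine genes and the named genes of the related lists, with DOX libraries left of the black line and DMSO libraries right of it. GOT1, GPT2, PSAT1 and SLC3A2 are lowest in DMSO 11 and highest in DMSO 23 or DMSO 35, while GOT2 and MDH2 are highest in DMSO 11.

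For each of the 8 genes, the genes with the most similar log2 CPM over the 6 libraries were found among 9136 genes averaging 10 CPM or more, with the 8 themselves and clone names left out, as a description. The nearest genes were SNHG12, a snoRNA host gene, for GOT1, the ribosome biogenesis gene UTP18 and the complex I assembly factor NDUFAF4 for GLUD1, and MDH2 and BEX1 for GOT2. They were the translation factor subunit EIF2S3 and ZNF25 for SLC38A2, FIP1L1 and the zinc carrier SLC30A4 for SLC38A1, DPF2 and YTHDF1 for SLC1A5, CDC42SE1 and CDK5R1 for GLS2, and HNRNPA0 and EXT2 for GLUL; SMAP2 was the second for GOT1. Likeness was the Pearson correlation, from 0.991 for BEX1 to 0.999 for FIP1L1. All these genes share the same 6 libraries, in which DMSO 23 and 35 stand apart from the other 4.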

How the data were processed

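Strand-specific paired-end libraries of total RNA were made from 3 DOX and 3 DMSO samples, per the labels' protocols. The authors deposited raw read counts per Ensembl gene and their own comparison. The submitters' processing notes list STAR 2.5.2a, featureCounts, DESeq2 1.12.4 and build hg19 without saying how they were used. Annotation release and strand setting are not given in the sources used here. Per the file headers, the authors' table holds p-values, a score (the test statistic), log2 fold changes and their errors, and a mean signal over libraries; its sign matched DOX over DMSO for 99.25% of the genes tested. The names of the count columns give the group, while their number matches no label, so columns were mapped to groups, not to numbered samples. The 92 spike-in rows held 0 counts and were left out; 0 columns of per-library values were unused. No 2 libraries agreed within sampling noise (mean chi-square per gene at least 4.56).

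Counts were filtered with filterByExpr, scaled by TMM and fitted in R 4.3.3 with edgeR 4.0.16 (quasi-likelihood F test, robust, 1 term for group), with adjustment over 15949 genes. The standard error is the fold change's size over the square root of F. A prior count of 2 entered log2 CPM. As alternatives, limma 3.58.1 (voom) and DESeq2 1.42.0 were run. The precision is set by 3 libraries per group. On simulated counts (15700 genes, 200 changed), edgeR recovered 97% of 2-fold and 44% of 1.5-fold changes with 13 false calls of 154. DESeq2 recovered 99% and 72% with 36 of 207, and voom 97% and 41%. These shares do not give the recovery in the measured counts, where a DMSO library stood apart from its group. There edgeR called 5 genes. It did not call ALDH4A1 at a log2 fold change of 1.005 (adjusted p = 0.121) or COL1A1 at 1.20 (adjusted p = 0.107). The members and lists were chosen with earlier results of these data known. Named were the members, MYC, MYCN, and from each list the 3 genes with the smallest edgeR p and the most abundant one. Also named were the 2 genes most similar to each member, and relatives sharing reads or a locus. GLUD2, CAD, ASNS, CD2, CD3G and CD7 were added after their values were seen, and CPS1 and SLC7A11 for their function. Before counting, 2 genes were left out of the lists and are not reported here; list genes outside the rule enter only the counts. Chromosomes, lengths and overlaps came from GENCODE 29, matched by gene ID, a build other than the authors'. Motif windows came from RefSeq. Figures were drawn with matplotlib 3.10.9.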

Additional observations from a re-analysis of the deposited data

How the results depend on the processing

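All 8 glutamine genes kept the direction of their log2 fold change in each of the 15 alternatives, and 111 of 120 values stayed on the same side of the threshold; the other 9 passed it where the fit with all libraries did not (7 without DMSO 11, and GLUD1 with DESeq2 and with no filter). The count of glutamine genes called, 0 with edgeR, was 1 with DESeq2 and 1 with no filter on low counts, and ran from 0 to 7 when 1 library was left out. The count over all genes, 5, was 1383 with DESeq2, 1761 with no filter and 1 at a threshold of 0.01, and ran from 0 to 8109 when 1 library was left out; where the count was 0, unadjusted p-values were under 0.05 for 2273 to 2629 genes. The cause of these differences between tests was not tested. The median log2 fold change of the 8 genes, -0.24, ran from -0.35 (without DMSO 11) to -0.18 when 1 library was left out. Genes named only for their likeness to a glutamine gene, and CD2, CD3G, CD7, CPS1 and SLC7A11, were not followed across the alternatives. Of the 34 other genes that were, edgeR called 0 with all 6 libraries. Among these 34, direction changed for SLC25A11 with upper quartile scaling (0.0095). With 1 library left out it also changed for SLC25A11 (range -0.077 to 0.033; above 0 without DMSO 11), KRT8 (-0.31 to 3.58; below 0 without DMSO 11, DMSO 35 or DOX 12), ALDH18A1 (-0.0066 to 0.31; below 0 without DMSO 23) and CD3E (-0.018 to 0.044; below 0 without DMSO 35 or DOX 12). No paired analysis was possible because the count columns do not carry the replicate numbers of the labels. GLS2, at 58 to 97 counts per library, had the fewest counts of the 8.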
